A study of Mus musculus with 8 samples.

Results

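The 8 genes Tcf7, Lef1, Klf2, Bach2, Satb1, Foxp1, Foxo1 and Id3 encode transcription regulators that are associated with quiescence and with the naive state of T cells. They were chosen by name, with earlier results of these data known. Each was measured by the probe sets whose annotation carries the Entrez identifier of that gene and no other. This gave 26 probe sets of the 45037 non-control probe sets on the Affymetrix Mouse430_2 array. The samples were sorted CD4+CD25+ mouse regulatory T cells, the lineage that carries the transcription factor Foxp3. GFP-RFP+ cells, labelled as peripherally induced, and GFP+RFP+ cells, labelled as thymically induced, were each sorted from spleen and from lymph nodes of untreated mice aged 14 to 17 weeks. All 4 groups are RFP+, so GFP alone separates the populations. No source used here states the strain, or the promoter or allele behind each reporter. For every group the organs of 20 mice had been combined, and 50 ng of total RNA went into labelling. The 2 arrays of a group are technical replicates. A group is therefore 1 sample, the 2 organs are the only repeat of the population comparison, and the spread between mice or sorts was not measured.

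As background, Tcf7 (TCF-1) and Lef1 are HMG-box factors that bind the same DNA element and can act with beta-catenin. Klf2 and Foxo1 maintain quiescence and the expression of homing receptors in resting T cells, and Foxo1 leaves the nucleus when antigen receptor and growth factor signalling activates the kinase Akt. Bach2 is a repressor that restrains effector differentiation, Foxp1 supports naive T cell quiescence, and Satb1 organizes chromatin in developing T cells. Id3 has no DNA-binding domain of its own and inhibits E proteins, the basic helix-loop-helix factors that read E-box motifs. In regulatory T cells, these factors are usually discussed in connection with the resting, lymphoid-homing state, as opposed to the effector state marked by Prdm1, Klrg1 or Icos.

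The 3 genes with the largest population differences at the probe set used for each gene were Id3, Bach2 and Klf2. Their upstream sequences, the 250 bases before the start in a RefSeq-based table of GRCm38.p6, are shown so that the regions can be set against each other. All 3 are on the plus strand and are written 5′ to 3′. Capitals mark the letters CACCC, the core of the motif bound by KLF factors, on either strand. The Id3 sequence lies at chr4:136143572-136143821, the Bach2 sequence at chr4:32417185-32417434 and the Klf2 sequence at chr8:72318812-72319061. The Bach2 window lies inside the span that the same annotation gives the gene.
Id3: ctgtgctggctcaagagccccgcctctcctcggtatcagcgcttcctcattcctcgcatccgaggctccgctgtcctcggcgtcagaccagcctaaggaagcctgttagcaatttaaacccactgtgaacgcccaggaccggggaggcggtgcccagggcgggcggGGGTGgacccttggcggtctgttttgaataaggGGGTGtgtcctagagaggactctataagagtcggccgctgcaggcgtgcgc
Bach2: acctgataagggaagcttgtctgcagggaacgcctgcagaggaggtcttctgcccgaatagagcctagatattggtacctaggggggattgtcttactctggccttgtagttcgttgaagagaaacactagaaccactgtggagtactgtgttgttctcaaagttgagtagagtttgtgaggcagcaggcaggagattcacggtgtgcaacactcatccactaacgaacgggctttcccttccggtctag
Klf2: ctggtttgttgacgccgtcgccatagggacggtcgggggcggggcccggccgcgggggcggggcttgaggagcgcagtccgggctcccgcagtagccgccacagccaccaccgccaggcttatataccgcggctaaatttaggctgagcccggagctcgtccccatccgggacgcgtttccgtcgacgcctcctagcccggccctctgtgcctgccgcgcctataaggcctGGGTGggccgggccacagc
The Id3 window holds 2 matches to CACCC, the Klf2 window 1 and the Bach2 window 0. Over the 18 start sites listed for the 8 genes, 14 windows hold a match, and 52.0% of all 32851 windows of this length do. The forkhead letters GTAAACA were in 0 of the 18 windows and in 3.2% of all windows. The TCF/LEF letters CTTTGAT were likewise in 0 of the 18 and in 3.2% of all, and the E-box letters CANNTG were in 11 of the 18 and in 66.2% of all. Both strands were searched for each motif. Several of the 18 windows overlap or belong to 1 gene, and a match is only a description of the letters.

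Values are dChip model-based signals, a linear measure of probe set brightness that the authors scaled to 1 baseline array. A level of 1 probe set cannot be set against that of another. The median signal per array lay between 25.0 and 27.0, and the share of non-control probe sets called present lay between 53.3% and 56.2%. Of the 26 probe sets of the 8 genes, 23 were called present on all 8 arrays, compared with 38.8% of all non-control probe sets. The Satb1 probe set 1456902_at and the Foxo1 probe set 1456529_at were called absent on all 8, and the Satb1 probe set 1439315_at was called present on 6 and marginal on 2. Each of the 8 genes had at least 1 probe set present on every array. A gene with several probe sets is represented below by the one with the highest mean log2 signal.

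The 9 hybridization controls are probe sets for the BioB, BioC, BioDn and CreX transcripts, which are added to each array in fixed amounts. On average they were 0.16 log2 units brighter on the GFP-RFP+ arrays than on the GFP+RFP+ arrays. The offset was 0.24 in spleen and 0.07 in lymph nodes. In spleen their mean log2 signal was 9.98 on both GFP-RFP+ arrays against 9.70 and 9.78 on the GFP+RFP+ arrays. In lymph nodes it was 9.70 and 9.96 against 9.72 and 9.81, so the populations overlapped there. The scaling of the arrays can therefore move a population difference by about 0.16 log2 units. Foxp3 itself had a mean signal of 953 in GFP-RFP+ spleen cells against 1502 in GFP+RFP+ spleen cells, and 1037 in GFP-RFP+ lymph node cells against 1456 in GFP+RFP+ lymph node cells. The summed markers of myeloid, erythroid and B cells were brighter in spleen. The erythroid gene Hba-a1 and the B cell gene Pax5, each called present on 0 arrays, were lower in spleen in both populations. The summed signal of 6 myeloid markers lay between 1827 and 2363 in GFP-RFP+ spleen cells, against 383 on both GFP-RFP+ lymph node arrays. In GFP+RFP+ cells it lay between 1216 and 1533 in spleen, against 264 to 279.9 in lymph nodes. The summed signal of 5 erythroid markers lay between 737 and 939.9 in GFP-RFP+ spleen cells and between 334 and 572 in GFP+RFP+ spleen cells, against at most 46.4 on any lymph node array, where the defining erythroid gene Alas2 was at 2.53 to 4.95. The 6 B cell markers summed to between 650.4 and 878 in GFP-RFP+ spleen cells, between 519 and 716 in GFP+RFP+ spleen cells and at most 318 in lymph node cells, with Pax5 called absent on all 8 arrays. The 6 CD8 and natural killer markers summed to between 224 and 322 over all arrays, and Klrb1c was called absent on all 8. The 4 stromal markers summed to between 138 and 167 over all arrays. Nearly all of that sum was Pecam1, at 119 to 149, and Col1a1, Col3a1 and Pdgfra were called present on 1, 3 and 2 arrays. In such bulk samples, fewer cells of a type and less RNA per cell cannot be told apart.

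The first comparison asks how GFP-RFP+ cells differ from GFP+RFP+ cells. The 8 genes did not share 1 direction: Id3 and Bach2 were lower in GFP-RFP+ cells, Klf2 was higher, and Tcf7, Lef1, Satb1, Foxp1 and Foxo1 differed by at most 1.11-fold at the representing probe set. The duplicates of each group were averaged and fitted with limma, with organ as a term. The SE given with a difference is limma's moderated SE. It draws on the spread of all probe sets in the fit and is not the spread of the repeats alone. Over all 45037 probe sets, 0 (0%) passed a Benjamini-Hochberg adjusted p of 0.05 and 7282 had an unadjusted p under 0.05. The smallest adjusted p was 0.28. The fit restricted to the 22519 probe sets with a mean signal at or above the median called 3079 higher (13.7%) and 1399 lower (6.21%) in GFP-RFP+ cells. Of the 23 probe sets of the 8 genes in that fit, 2 were called higher and 3 lower. All 4 GFP-RFP+ arrays lay above all 4 GFP+RFP+ arrays for 4 of the 26 probe sets and below them for 5, compared with 12.0% and 7.42% of all probe sets. One of the 26, that of Id3, differed by at least 1.5-fold in the same direction in both organs, and it was lower, as were 3.28% of all probe sets (5.85% were higher). The median difference over the 8 genes was -0.11 log2 units, beside -0.01 over 1 probe set for each of 20665 genes. Counts near these backgrounds say nothing particular about the 8 genes.

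**Figure D1:**
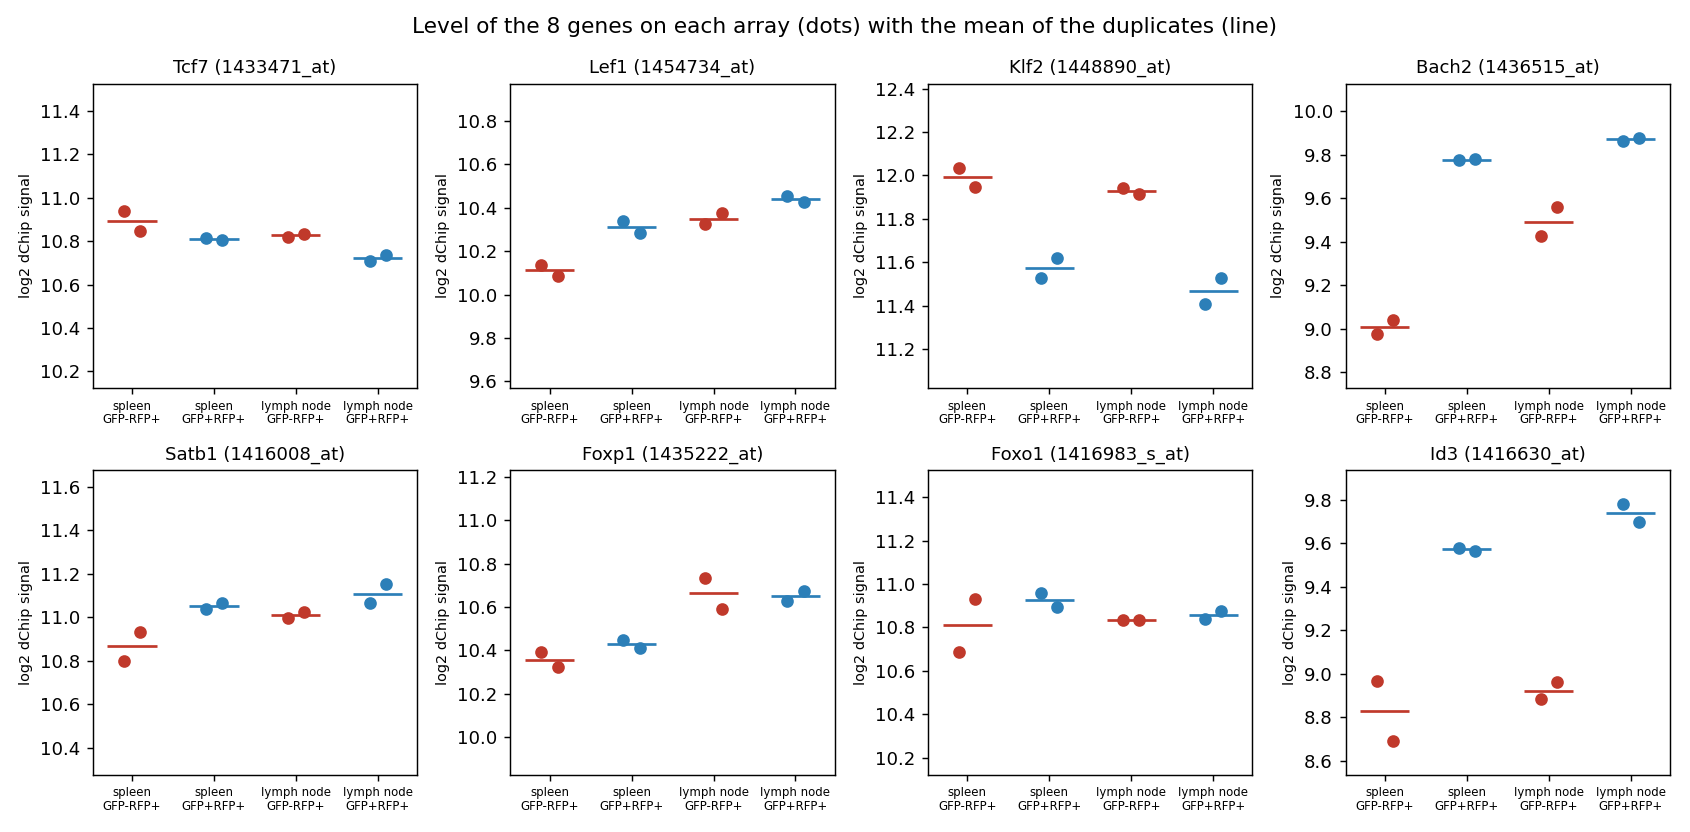
Log2 dChip signal (y axis) of the representing probe set of each of the 8 genes on every array, by organ and population (x axis). Dots are single arrays, lines the mean of the 2 technical replicates, and all panels span the same log2 range. Id3 and Bach2 are lower and Klf2 is higher on all 4 GFP-RFP+ arrays than on all 4 GFP+RFP+ arrays.

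Id3, the inhibitor of E proteins, showed the largest difference among the 8. Its 1 probe set (1416630_at) had signals of 500.3 and 413 in GFP-RFP+ spleen cells, against 765 and 756 in GFP+RFP+ spleen cells. In lymph nodes the signals were 472 and 498 in GFP-RFP+ cells, against 879 and 830.2 in GFP+RFP+ cells. The populations did not overlap in either organ, whereas the GFP-RFP+ arrays of spleen and lymph node did overlap each other. The log2 difference was -0.78 ± 0.11 (SE, limma, 2 organs), a 1.72-fold lower level, with -0.74 in spleen and -0.82 in lymph nodes. Its limma adjusted p was 0.28 over all probe sets and 0.0094 among the brighter ones. With any 1 of the 8 arrays left out, the adjusted p among the brighter probe sets lay between 0.0060 and 0.026.

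Bach2, the repressor that restrains effector programmes, was also lower in GFP-RFP+ cells, on both of its probe sets. The probe set 1436515_at had signals of 503 and 527 in GFP-RFP+ spleen cells, against 876 and 881 in GFP+RFP+ spleen cells. In lymph nodes it had 688 and 755 in GFP-RFP+ cells, against 933 and 942 in GFP+RFP+ cells. The 4 groups were fully separated and ordered, with GFP-RFP+ spleen cells lowest and GFP+RFP+ lymph node cells highest. The second probe set, 1437667_a_at, had 425 and 386 in GFP-RFP+ spleen cells against 655 and 648 in GFP+RFP+ spleen cells. Its signals in lymph nodes were 574 and 587 in GFP-RFP+ cells against 756 and 786 in GFP+RFP+ cells, the same order of groups. Over the 8 arrays the probe sets had a Pearson correlation of 0.97, as a description of 4 pools with 2 arrays each. The log2 difference was -0.57 ± 0.17 and -0.55 ± 0.14 (SE, limma, 2 organs), with limma adjusted p of 0.31 and 0.30 over all probe sets and 0.040 and 0.031 among the brighter ones. For 1436515_at that call was lost, with adjusted p between 0.051 and 0.074, when 1 of 4 arrays was left out: GFP-RFP+ lymph node array 1, GFP+RFP+ lymph node array 1, GFP-RFP+ spleen array 2 or GFP+RFP+ spleen array 2. The difference of 1436515_at was -0.77 in spleen and -0.38 in lymph nodes. A test of this gap of -0.39 on the spread of the technical replicates alone gave a limma adjusted p of 0.86.

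Klf2, a zinc-finger factor that maintains T cell quiescence and homing receptor expression, was higher in GFP-RFP+ cells. Its probe set (1448890_at) had signals of 4200.5 and 3950.2 in GFP-RFP+ spleen cells, against 2952 and 3145 in GFP+RFP+ spleen cells. In lymph nodes the signals were 3939 and 3856 in GFP-RFP+ cells, against 2719 and 2950.5 in GFP+RFP+ cells. All 4 GFP-RFP+ arrays were above all 4 GFP+RFP+ arrays, and the organs were close within each population. The log2 difference was 0.44 ± 0.11 (SE, limma, 2 organs), a 1.36-fold higher level, with 0.42 in spleen and 0.46 in lymph nodes. Its limma adjusted p was 0.30 over all probe sets and 0.029 among the brighter ones. The adjusted p among the brighter probe sets was 0.064 without GFP-RFP+ spleen array 1 and 0.0503 without GFP+RFP+ lymph node array 1. Quantile normalization brought the difference to 0.27 and the adjusted p among the brighter probe sets to 0.083.

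The HMG-box factors Tcf7 and Lef1 differed little between the populations. Tcf7 (1433471_at) had signals of 1965 and 1844 in GFP-RFP+ spleen cells against 1802 and 1787 in GFP+RFP+ spleen cells, and 1806 and 1825 in GFP-RFP+ lymph node cells against 1673 and 1707 in GFP+RFP+ lymph node cells. Every GFP-RFP+ array was above every GFP+RFP+ array, but by a log2 difference of only 0.09 ± 0.11 (SE, limma, adjusted p = 0.70). That is less than the mean offset of the hybridization controls, and centring the arrays on those controls turned the difference to -0.063. The second Tcf7 probe set, 1450461_at, had a difference of 0.28 in spleen and 0.00 in lymph nodes. Lef1 (1454734_at) had signals of 1124 and 1087 in GFP-RFP+ spleen cells against 1295 and 1248 in GFP+RFP+ spleen cells, and 1280.3 and 1328 in GFP-RFP+ lymph node cells against 1403 and 1375 in GFP+RFP+ lymph node cells. The populations were apart within each organ and overlapped across organs, with a log2 difference of -0.15 ± 0.11 (SE, limma, adjusted p = 0.58). The second Lef1 probe set, 1421299_a_at, with signals of 113 to 165, had the opposite sign in spleen (0.16) and the same sign in lymph nodes (-0.10).

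Satb1, the chromatin organizer, was the gene whose probe sets disagreed most. Its brightest probe set, 1416008_at, had signals of 1781 and 1953 in GFP-RFP+ spleen cells against 2105 and 2144 in GFP+RFP+ spleen cells. In lymph nodes the signals were 2042 and 2084 in GFP-RFP+ cells against 2142 and 2275 in GFP+RFP+ cells. This small separation, a log2 difference of -0.14 ± 0.11 (SE, limma, adjusted p = 0.58), left all 4 GFP-RFP+ arrays below all 4 GFP+RFP+ arrays. The probe set 1436182_at was lower in GFP-RFP+ cells by a wider margin, with 307 and 299 in GFP-RFP+ spleen cells against 488 and 484 in GFP+RFP+ spleen cells. Its lymph node signals were 399 and 396 in GFP-RFP+ cells against 492 and 496 in GFP+RFP+ cells. Its log2 difference was -0.50 ± 0.16 (SE, limma, adjusted p = 0.33 over all probe sets). Among the brighter probe sets its limma adjusted p was 0.051. The probe set 1439449_at went the other way, with 171 and 211 in GFP-RFP+ spleen cells against 139 and 121 in GFP+RFP+ spleen cells. In lymph nodes it had 216 and 271 in GFP-RFP+ cells against 99.2 and 138 in GFP+RFP+ cells. Over both organs its log2 difference was 0.80 ± 0.19 (SE, limma, adjusted p = 0.30 over all probe sets). Among the brighter probe sets its limma adjusted p was 0.027. Both probe sets carry the same single identifier, and no source used here states which transcripts each one detects. With quantile normalization among the brighter probe sets the limma adjusted p was 0.046 for 1436182_at and 0.044 for 1439449_at. The fourth Satb1 probe set present on all arrays, 1416007_at, overlapped between the populations, with a log2 difference of -0.05 ± 0.11.

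Foxp1, a forkhead repressor, had 8 probe sets, all present on all arrays. The representing one, 1435222_at, had signals of 1344 and 1281 in GFP-RFP+ spleen cells against 1397 and 1362 in GFP+RFP+ spleen cells, and 1704 and 1543 in GFP-RFP+ lymph node cells against 1583 and 1634 in GFP+RFP+ lymph node cells. The populations overlapped in lymph nodes, and the log2 difference was -0.03 ± 0.11 (SE, limma, adjusted p = 0.91). The probe sets 1421140_a_at, 1421141_a_at and 1421142_s_at were 0.21, 0.26 and 0.20 log2 units higher in GFP-RFP+ cells, while 1438802_at was lower, at -0.21. None of the 8 passed in either fit over all probe sets or over the brighter ones, and the smallest limma adjusted p among the brighter ones was 0.093, for 1421141_a_at. With an intensity trend in limma's eBayes step, which called 9.72% of all probe sets higher and 5.02% lower, the limma adjusted p was 0.042, 0.010 and 0.0495 for the 3 that were higher. Passing that fit was not particular to Foxp1. There the limma adjusted p was 3.2e-06 for Id3, 9.8e-05 for Klf2, and 0.00041 and 0.00026 for the Bach2 probe sets. It was 0.00035 for Satb1 1439449_at and 0.0016 for Satb1 1436182_at. The representing probe sets of Tcf7, Lef1, Satb1, Foxp1 and Foxo1 lay between 0.12 (Satb1) and 0.81 (Foxp1). The 28 correlations between pairs of Foxp1 probe sets over the 8 arrays ran from -0.10 to 0.98, with a median of 0.60.

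Foxo1, the forkhead factor controlled by Akt, had a population difference smaller than the gap in 1 of its 4 duplicate pairs. Its representing probe set, 1416983_s_at, had signals of 1651 and 1954 in GFP-RFP+ spleen cells against 1987 and 1906 in GFP+RFP+ spleen cells, and 1827 on both GFP-RFP+ lymph node arrays against 1829 and 1877 in GFP+RFP+ lymph node cells. That gap was 0.24 log2 units, between the duplicate arrays of GFP-RFP+ spleen cells, compared with the population difference of -0.07 ± 0.11 (SE, limma, adjusted p = 0.79). The 2 other Foxo1 probe sets present on all arrays had differences of 0.09 and -0.05. An mRNA level does not show where the Foxo1 protein is in the cell.

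**Figure D2:**
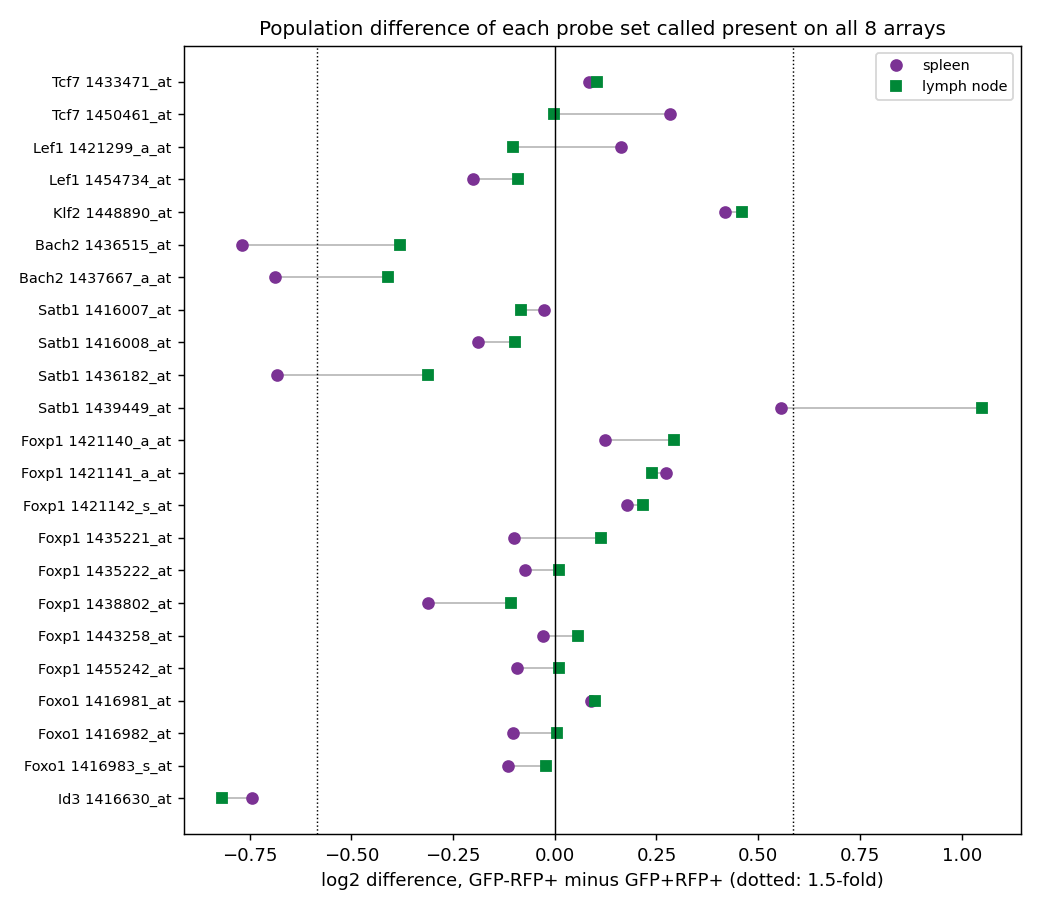
Log2 difference of GFP-RFP+ minus GFP+RFP+ cells (x axis) for the 23 probe sets of the 8 genes that were called present on all 8 arrays (y axis). Circles are spleen and squares lymph nodes, each the difference of 2 duplicate means, and the dotted lines mark 1.5-fold. Id3 is past the lower line in both organs, Bach2 in spleen, and the Satb1 probe sets 1436182_at (-0.68 and -0.31) and 1439449_at (0.56 and 1.05) lie on opposite sides.

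The direction of Id3, Bach2 and Klf2 was the same under each of the 4 scalings that were compared. Id3 lay between -0.94 and -0.78, Bach2 between -0.73 and -0.57, and Klf2 between 0.27 and 0.44. Centring on the hybridization controls gave the lowest values of Id3 and Bach2, and quantile normalization gave the lowest value of Klf2. Tcf7 was the representing probe set whose sign depended on the scaling, between -0.063 and 0.094. Lef1 moved between -0.30 and -0.15 and Satb1 between -0.30 and -0.14, without a change of sign. The alternative on the hybridization controls was chosen after seeing the data.

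**Figure D3:**
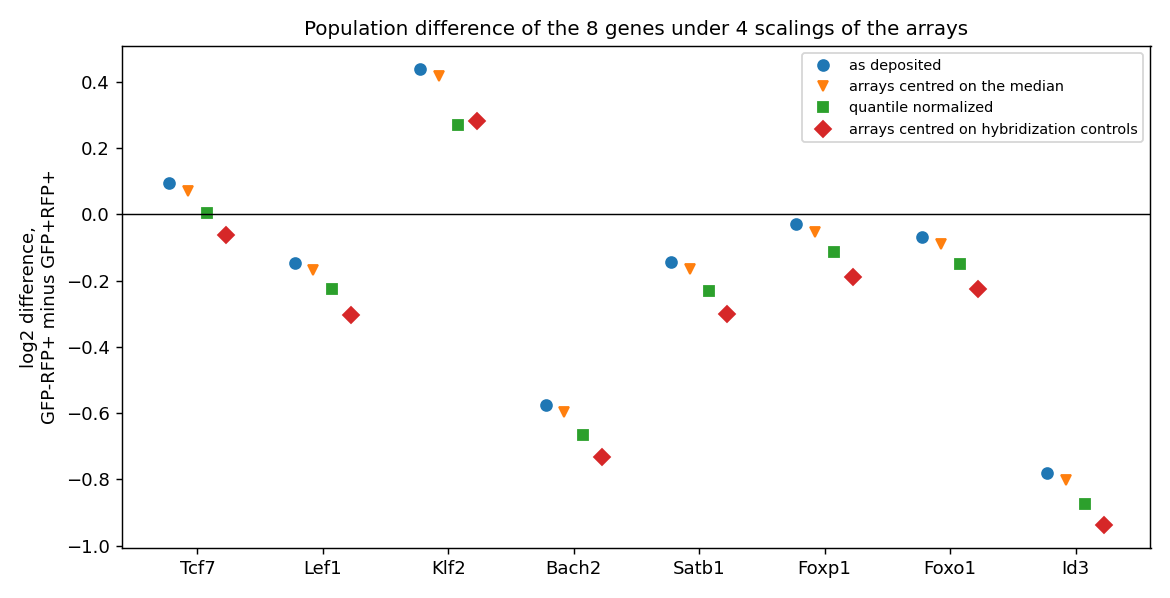
Log2 difference of GFP-RFP+ minus GFP+RFP+ cells (y axis) for the representing probe set of each gene (x axis), with the signals as deposited, centred on each array's median, quantile normalized, or centred on the hybridization controls. Each point is the mean over spleen and lymph nodes. Id3 and Bach2 stay below -0.5 and Klf2 above 0.2 under all 4, and Tcf7 crosses 0.

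The second comparison asks how cells from spleen differ from cells from lymph nodes. At the representing probe sets, 5 of the 8 genes (Lef1, Bach2, Satb1, Foxp1 and Id3) were lower in spleen in both populations, and Tcf7 and Klf2 were higher in both by small amounts. Of 1 probe set for each of 20665 genes, 26.3% were lower and 30.5% higher in both populations. None of the 8 passed limma over all probe sets or over the brighter ones, and none differed by 1.5-fold in both populations. With limma over all 45037 probe sets, 0 (0%) passed and 3620 had an unadjusted p under 0.05. Among the brighter probe sets 139 (0.617%) were called higher and 12 (0.0533%) lower in spleen, and 0 of the 23 probe sets of the 8 genes were among them. Over all 26 probe sets, 18 were lower in spleen in both populations and 4 were higher in both, beside 25.5% and 29.4% of all probe sets. The median difference of the 26 was -0.18 log2 units, beside 0.01 over all probe sets, and the probe sets of a gene share their target.

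All 8 Foxp1 probe sets were lower in spleen in both populations. Its representing probe set had 1344 and 1281 in GFP-RFP+ spleen cells against 1704 and 1543 in GFP-RFP+ lymph node cells, and 1397 and 1362 in GFP+RFP+ spleen cells against 1583 and 1634 in GFP+RFP+ lymph node cells. All 4 spleen arrays were below all 4 lymph node arrays for 3 of the 8 Foxp1 probe sets, which are all of the 26 that were separated this way (1.88% of all probe sets were). None of the 26 was separated with spleen higher, as 2.84% of all probe sets were. The log2 difference was -0.26 ± 0.11 (SE, limma, 2 populations, adjusted p = 0.69 over all probe sets and 0.36 among the brighter ones). With the intensity trend, which called 547 probe sets higher (1.21%) and 184 lower (0.409%) in spleen, the adjusted p was 0.036 for 1435222_at and 0.048 for the Foxp1 probe set 1455242_at.

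Bach2 had the largest organ difference of the 8 genes at the representing probe sets, -0.29 ± 0.17 (SE, limma, adjusted p = 0.76), and it was uneven. With the intensity trend its limma adjusted p was 0.15, and that of 1437667_a_at was 0.020. The difference was -0.48 in GFP-RFP+ cells and -0.09 in GFP+RFP+ cells for 1436515_at, and -0.52 and -0.24 for 1437667_a_at. Lef1 differed by -0.18 ± 0.11 (adjusted p = 0.78) and Id3 by -0.13 ± 0.11 (adjusted p = 0.83). Klf2 differed by 0.08 ± 0.11 (adjusted p = 0.90) and Tcf7 by 0.08 ± 0.11 (adjusted p = 0.91), and Foxo1 by 0.02 ± 0.11 (adjusted p = 0.98), all in the limma fit over all probe sets. The summed myeloid, erythroid and B cell markers given above were higher in the spleen samples of both populations. Their part in these organ differences was not tested.

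**Figure D4:**
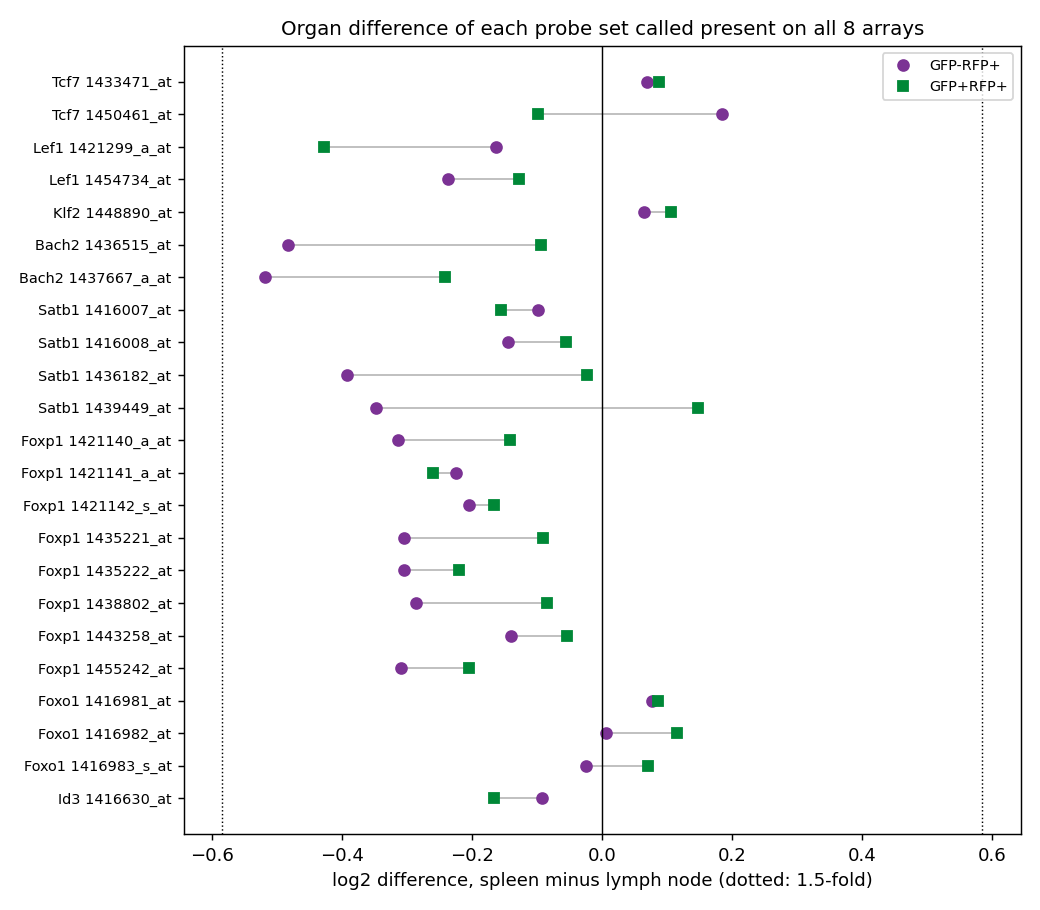
Log2 difference of spleen minus lymph node (x axis) for the same 23 probe sets (y axis). Circles are GFP-RFP+ cells and squares GFP+RFP+ cells, and the dotted lines mark 1.5-fold. Most probe sets lie left of 0, none passes the dotted line, and the Bach2 circles at -0.48 and -0.52 lie apart from their squares.

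Among 29 partner genes of quiescence and the naive state, 4 were at least 1.5-fold higher in GFP-RFP+ cells in both organs and 1 was at least 1.5-fold lower, beside 5.03% and 3.07% of 20665 genes. The median difference of the list was 0.04 log2 units, beside -0.01 over all genes. Its genes were chosen with earlier results of these data known, so the counts are only a description. Klf4, a relative of Klf2 that restrains T cell proliferation, had mean signals of 2106 in GFP-RFP+ spleen cells against 348 in GFP+RFP+ spleen cells, and 1717 in GFP-RFP+ lymph node cells against 303 in GFP+RFP+ lymph node cells. Tob2, an antiproliferative gene of the Tob and Btg family, was 2.34-fold higher in GFP-RFP+ cells. Ccr7, the receptor for homing to lymph nodes, was 2.26-fold higher, and the repressor Bcl6 was 1.84-fold higher. The 1 that was lower was Igfbp4, a gene of naive T cells, with mean signals of 96.5 in GFP-RFP+ spleen cells against 191 in GFP+RFP+ spleen cells, and 261 in GFP-RFP+ lymph node cells against 401 in GFP+RFP+ lymph node cells. Of the 27 list members among the brighter probe sets, 6 were called higher and 1 lower by limma, beside 13.7% and 6.21% of all brighter probe sets, with adjusted p between 0.0027 and 0.018 for the 5 genes named here. The smallest adjusted p over all probe sets was 0.28 for these genes as well. Between organs, Il7r, the receptor for interleukin 7, was at least 1.5-fold higher in spleen in both populations (1.62-fold on average, limma adjusted p = 0.068 among the brighter probe sets), as were 3.04% of genes. Igfbp4 was at least 1.5-fold lower (2.38-fold on average, limma adjusted p = 0.042 among the brighter probe sets), as were 1.49% of genes.

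Of 16 effector-state genes, 11 were at least 1.5-fold higher in GFP-RFP+ cells in both organs and 0 were at least 1.5-fold lower, beside 5.03% and 3.07% of all genes. The median difference was 1.11 log2 units. Limma called 14 of the 15 among the brighter probe sets higher, beside 13.7% of all brighter probe sets. In the limma fit over all probe sets the smallest adjusted p of these genes was 0.28. The list was chosen with earlier results of these data known, so its counts are only a description. Klrg1, a receptor of differentiated T cells, had mean signals of 817 in GFP-RFP+ spleen cells against 192 in GFP+RFP+ spleen cells, and 352 in GFP-RFP+ lymph node cells against 92.4 in GFP+RFP+ lymph node cells. Ccr2, a receptor for inflammatory chemokines, was 3.13-fold higher, and the nuclear receptor Rora was 3.07-fold higher. Prdm1, which encodes the repressor Blimp-1, was 2.64-fold higher, Irf4 2.55-fold, Il1rl1 (the interleukin 33 receptor) 2.52-fold and the costimulator Icos 2.44-fold. Id2, the counterpart of Id3 among E protein inhibitors, was 2.83-fold higher in GFP-RFP+ cells, with 2017 and 2423 in GFP-RFP+ spleen cells against 656 and 761 in GFP+RFP+ spleen cells. In lymph nodes Id2 had 1644 and 1515 in GFP-RFP+ cells against 584 and 649 in GFP+RFP+ cells. Id2 and Id3 were therefore separated between the populations in opposite directions on all 8 arrays. Between organs, Klrg1 was 2.20-fold higher in spleen (limma adjusted p = 0.023 among the brighter probe sets), and Itgae, the alpha E integrin, was 1.65-fold lower (limma adjusted p = 0.10 in the same fit). The effector list and Id3, Bach2 and Klf2 come from the same arrays, and whether they move in the same cells was not tested.

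Among 11 represented relatives of the 8 genes, the KLF factor Klf6 and the E protein inhibitors Id1 and Id2 were at least 1.5-fold higher in GFP-RFP+ cells in both organs, and 0 were at least 1.5-fold lower, beside 5.03% and 3.07% of all genes. These names were chosen after their values were seen. Klf6 was 3.60-fold higher, with mean signals of 3424 in GFP-RFP+ spleen cells against 961 in GFP+RFP+ spleen cells and 3141 in GFP-RFP+ lymph node cells against 862 in GFP+RFP+ lymph node cells. Id1 was 2.23-fold higher, with mean signals of 105 in GFP-RFP+ spleen cells against 38.7 in GFP+RFP+ spleen cells and 71.9 in GFP-RFP+ lymph node cells against 39.1 in GFP+RFP+ lymph node cells.

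**Figure D5:**
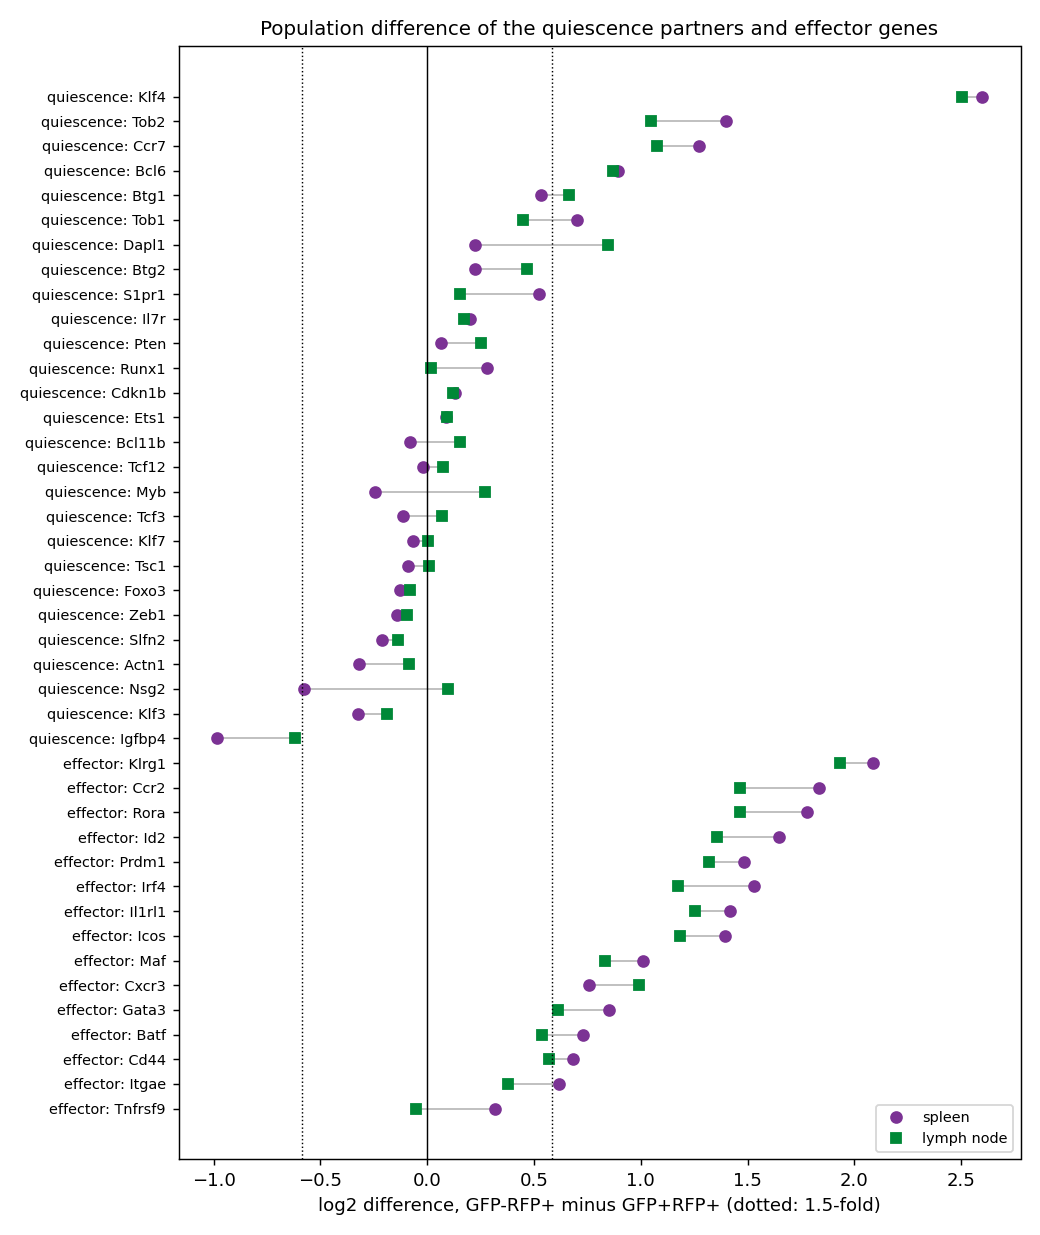
Log2 difference of GFP-RFP+ minus GFP+RFP+ cells (x axis) for the genes of the quiescence partner list and the effector list (y axis) whose representing probe set was called present on all 8 arrays. Circles are spleen, squares lymph nodes and the dotted lines mark 1.5-fold. The quiescence partners lie on both sides of 0, with Klf4 farthest right, and 14 of the 15 effector genes lie to the right in both organs.

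Over the 8 arrays, the strongest Pearson correlations between representing probe sets were -0.96 for Klf2 and Id3 and 0.92 for Bach2 and Satb1. Next came Lef1 and Bach2 at 0.89, Klf2 and Bach2 at -0.89, Tcf7 and Satb1 at -0.89, and Bach2 and Id3 at 0.87. Those of Satb1 hold for 1416008_at only, with which the Satb1 probe set 1439449_at had a correlation of -0.40. Foxo1 and Foxp1 had the weakest, at -0.12. These describe 4 pools with 2 arrays each that share their scaling, and carry no test. Id3 was the only gene of the 8 whose representing probe set ranged over at least 1 log2 unit. The genes most like it over the 8 arrays, among 17967 probe sets of that range, were Prg4, Gata1 and Ms4a4c, each with r = 0.99. Gata1, a transcription factor best known from erythroid cells, had signals of 59.0 and 48.4 in GFP-RFP+ spleen cells against 158 and 143 in GFP+RFP+ spleen cells. In lymph nodes it had 57.6 and 56.8 in GFP-RFP+ cells against 173 and 174 in GFP+RFP+ cells, so that it was lower in GFP-RFP+ cells in both organs. Which cells gave this signal was not tested.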

How the data were processed

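The deposited values are linear intensities. Per the file headers, the authors computed them in dChip as model-based expression relative to 1 baseline array and did not take logs. RMA is the method named in the submitters' processing notes. The series' value table, whose columns are named by sample, holds for all 8 arrays the same intensities as the dChip table to within 0.001. Samples were assigned through those column names. The dChip table's own column names match no label, so its detection calls, which the authors deposited as present, marginal or absent, were used only as counts over the 8 arrays.

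Intensities were log2 transformed with no pseudocount. The duplicate arrays of each group were averaged, which left 4 samples, and fitted with limma 3.58.1 in R 4.3.3 (population and organ as terms, eBayes, Benjamini-Hochberg over 45037 probe sets). The fit has 1 residual degree of freedom per probe set. The gap between organs in the population difference has no test in it. Arrays' number limits the precision. Genes were named through Entrez identifiers in a RefSeq table of GRCm38.p6. The 8 genes are all described. From the quiescence and effector lists, genes were named when they differed by at least 1.5-fold in both repeats, up to 8 per list and comparison. Like genes were named as the 3 highest correlations. The members and lists were chosen with earlier results of these data known, and 1 gene of the quiescence list is not reported here. Alternatives were other scalings, filters, pseudocounts and treatments of the technical replicates.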

Additional observations from a re-analysis of the deposited data

Results flagged for a closer look

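For the Foxp1 probe set 1435221_at and for Nsg2, both GFP-RFP+ arrays lay below both GFP+RFP+ arrays in spleen and above them in lymph nodes. The gap between the organs' population differences (spleen minus lymph node) was -0.2142 log2 units for this Foxp1 probe set and -0.6766 for Nsg2. For 5 further genes the organ difference (spleen minus lymph node) was opposite in the populations on every array. The gap between them (GFP-RFP+ minus GFP+RFP+) was 0.3707 for S1pr1, -0.131 for Btg1, -0.2362 for Actn1, -0.2335 for Bcl11b and -0.2048 for Ctnnb1. These cases were picked by that pattern from probe sets of the 8 genes and of the quiescence, relative and effector lists. The share of all probe sets that show it was not computed, so their number says nothing particular about these genes. In GFP-RFP+ cells, Btg1 met it narrowly, with 3101.42 on spleen array 1 against 3101.73 on lymph node array 1. The averaged samples allow no test of these gaps. A limma fit over the 8 arrays, which measures technical spread only, gave adjusted p values from 0.70 (Nsg2) to 0.96 (Btg1).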

How the results depend on the processing

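With 0 probe sets called for either comparison in the fit over all probe sets, the counts depended on the setting. For the population difference, the brighter probe sets alone gave 4478 calls, a pseudocount of 16 gave 3700 and an intensity trend in eBayes gave 6638. Treating the 8 arrays as separate samples, whose spread is technical, gave 4692, and the sample as a random block gave 8291. The random block used an estimated correlation within a sample of -0.29. With a negative value the fit does not treat the duplicates as alike, so its count is no better founded. For the organ difference the same settings gave 151, 279, 731, 324 and 787 calls. With the technical replicate number as a replicate block, the 8 arrays gave 3591 calls for the population difference and 185 for the organ difference. Deviations of same-numbered arrays correlated between -0.12 and 0.13 over the brighter probe sets. Correlations over so many probe sets cannot show whether same-numbered arrays share an effect on some of them. Alternatives chosen after seeing the data were the brighter probe sets with quantile normalization (4031 and 103 calls), the brighter probe sets with 1 array left out (3054 to 3929 and 67 to 185), and centring on the hybridization controls (0 and 114). Quantile normalization turned the split of calls among the brighter probe sets to 2155 higher and 1876 lower, compared with 3079 and 1399. Leaving out 1 array in the fit over all probe sets gave 0 calls each time, as did median centring, quantile normalization and leaving the other factor out of the fit.

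The population difference of Tcf7 was -0.063 with hybridization control centring. On other probe sets it was 0.031 for Lef1 (1421299_a_at), 0.70, 0.80 and 1.19 for Satb1 (1439315_at, 1439449_at and 1456902_at), 0.093 for Foxo1 (1416981_at), and 0.21, 0.26, 0.20, 0.0063 and 0.014 for Foxp1 (1421140_a_at, 1421141_a_at, 1421142_s_at, 1435221_at and 1443258_at). The organ difference of Foxo1 was -0.037 with hybridization control centring, -0.031 with median centring and -0.61 on 1456529_at, and that of Satb1 was 0.38 on 1456902_at. With 1 array left out, the population difference of Foxp1 ran from -0.066 to 0.0050 (without GFP-RFP+ lymph node array 2) and the organ difference of Foxo1 from -0.038 (without GFP-RFP+ spleen array 2) to 0.084. The cause was not tested. Id3, Bach2 and Klf2 kept their direction in every alternative run. The call of Klf2 among the brighter probe sets was lost with quantile normalization.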
